A study of Mus musculus with 6 samples.

Results

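The Notch receptors *Notch1*, *Notch2*, *Notch3* and *Notch4* and the ligands *Jag1*, *Jag2*, *Dll1* and *Dll4* were followed in FACS-sorted mammary cells of WT and Glis2 KO mice. These 8 genes were taken by symbol from the 54418 genes of the count table, and all 8 were among the 21236 genes that passed the filter on low counts. Mammary glands came from C57BL/6 females that were 4 weeks old, 3 WT mice (*Glis2*+/+) and 3 Glis2 KO mice (*Glis2*-/-, mice with a germline knockout of the gene), with 1 RNA-seq library per mouse. The cells had been dissociated, stained for viability, TER-119, CD31, CD45, CD24 and CD49f, and sorted, and the gate that gave these libraries is not given in the sources used here. The study asked which genes depend on GLIS2, a transcriptional repressor related to the GLI factors of Hedgehog signaling, in mammary epithelial cells.

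Notch signaling passes between touching cells. A ligand on one cell, of the Jagged or Delta-like type, binds a Notch receptor on its neighbour, the receptor is cut by an ADAM protease and then by γ-secretase, and the freed intracellular part enters the nucleus and activates target genes together with RBPJ. In the mammary gland the pathway is known for its role in luminal cell fate, NOTCH3 as a receptor of luminal progenitors and DLL1 as a ligand of basal cells, while NOTCH4 and DLL4 are best known from blood vessels and NOTCH3 also from the mural cells around them.

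None of the 8 genes passed the test over all genes. *Notch3* and *Jag1* came nearest: in each, every Glis2 KO library was below every WT library, with a log2 fold change of −0.38 and −0.37 (edgeR's quasi-likelihood test, adjusted p = 0.906 for both). *Notch1* and *Notch2* differed by −0.16 and −0.08 in log2, and *Jag2* and *Dll1* by 0.20 and 0.27, each with overlap between the genotypes. *Notch4* and *Dll4* varied more than 3-fold between libraries, and both were lowest in WT replicate 2 and Glis2 KO replicate 2, the libraries lowest in endothelial, pericyte, fibroblast and adipocyte markers.

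The sequences just upstream of the genes the results turn on are shown first, as background to the genes. They are RefSeq promoter sequences of GRCm38.p6, the build of the mm10 assembly on which the counts were made, read 5′ to 3′ on the strand of the gene and ending before the first annotated transcript start of both RefSeq and GENCODE vM21. Capitals mark the letters TGGGGGGT or ACCCCCCA, the same word on the other strand, which is a core of the G-rich sites known for GLIS proteins, and GGGCGG or CCGCCC, the GC box that Sp and KLF factors bind. *Notch4* (chr17:34564045-34564267, plus strand) holds the GLIS word at 2 places, beginning 148 and 37 bases before its RefSeq start.

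Notch4: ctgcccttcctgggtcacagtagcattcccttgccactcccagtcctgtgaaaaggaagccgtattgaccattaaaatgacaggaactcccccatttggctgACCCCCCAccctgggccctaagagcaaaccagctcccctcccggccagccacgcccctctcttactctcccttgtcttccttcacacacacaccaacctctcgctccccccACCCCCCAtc
Notch3: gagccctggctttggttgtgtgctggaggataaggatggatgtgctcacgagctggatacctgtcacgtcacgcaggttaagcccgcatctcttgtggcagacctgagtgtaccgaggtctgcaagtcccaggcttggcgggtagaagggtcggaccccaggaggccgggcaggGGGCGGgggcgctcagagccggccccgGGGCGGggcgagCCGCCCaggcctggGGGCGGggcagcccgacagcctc
Jag1: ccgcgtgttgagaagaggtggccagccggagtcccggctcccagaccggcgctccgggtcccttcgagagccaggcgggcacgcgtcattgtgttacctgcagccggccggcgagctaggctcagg
Dll4: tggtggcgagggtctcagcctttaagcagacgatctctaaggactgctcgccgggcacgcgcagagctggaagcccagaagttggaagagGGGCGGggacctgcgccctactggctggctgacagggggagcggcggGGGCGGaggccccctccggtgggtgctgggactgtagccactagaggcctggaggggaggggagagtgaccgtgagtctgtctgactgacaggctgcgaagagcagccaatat

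The other 3 sequences lie at chr17:32166891-32167140 on the minus strand (*Notch3*), at chr2:137116645-137116770 on the minus strand (*Jag1*) and at chr2:119325534-119325783 on the plus strand (*Dll4*), and hold no GLIS word. Over the full windows of 300 bases, from 250 before to 50 after the RefSeq start, *Notch4* was the only member with the GLIS word, which 1.53% of all 32851 promoter windows hold. The window of *Notch4* held 5 CpG dinucleotides, below the median of 7 over all windows, against 25 for *Notch3*, 22 for *Jag1* and 17 for *Dll4*. GC boxes were found in the windows of *Notch1*, *Notch2*, *Notch3*, *Jag2* and *Dll4*, and in 35.7% of all windows. None of the members' windows held GTGGGAA or GTGAGAA on either strand, 2 forms of the RBPJ site that 10.6% of windows hold. These are matches of letters, and binding at them was not measured.

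The libraries held between 24996524 and 31393917 estimated counts. The members were well covered, with between 204 counts (*Notch4* in WT replicate 2) and 9247 counts (*Notch1* in WT replicate 2) per library. Levels of a gene are compared between libraries as CPM, counts scaled to a common library size by the TMM method, and levels of different genes as TPM, a scaled share of all transcripts that allows for gene length. *Glis2* stood at 21.5 ± 1.83 CPM in WT and 14.5 ± 3.81 CPM in Glis2 KO (SD, n = 3 each), while its TPM was 2.08 to 4.19 in WT and 2.75 to 3.17 in KO. Its transcript was thus present in the KO libraries, and their genotype rests on their labels. Over all genes, 0 of 21236 were called (0% called), where a call needed an adjusted p up to 0.05 together with a log2 fold change of 0.58 or more in size. In edgeR 1130 genes had an unadjusted p under 0.05, and DESeq2 called 45 of 27000 genes (0.167%).

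Markers of epithelium and of other cell types were both found in these libraries. All markers listed passed the filter on low counts, 12 luminal, 10 basal, 12 endothelial, 7 pericyte, 7 fibroblast, 7 immune, 5 adipocyte and 3 erythroid genes, and none was at 0 in every library. The summed level of the 12 endothelial genes, with *Cdh5* (VE-cadherin) and *Pecam1* (CD31) the highest, lay between 227 and 977 CPM in WT and between 333 and 993 CPM in Glis2 KO. It was lowest in WT replicate 2 and Glis2 KO replicate 2 and varied 4.37-fold over the libraries. The sum of the basal markers, led by *Myh11* and *Acta2*, lay between 4460 and 5787 CPM in WT and between 6080 and 7324 CPM in KO without overlap, with all 10 higher in KO on average but only *Oxtr* and *Cnn1*, 2 of the 10, without overlap as single genes. The sum of the immune markers, led by *Cd74* and *Ptprc* (CD45), also did not overlap, with 28.7 to 59.3 CPM in WT and 67.6 to 124 CPM in KO, and 3 of the 7 genes, *Cd74*, *Ptprc* and *Cd79a*, were without overlap as single genes. Luminal markers, led by *Krt8* and *Krt18*, lay between 4298 and 7243 CPM in WT and between 4228 and 7602 CPM in KO. The pericyte markers, led by *Rgs5* and *Mcam*, lay between 141 and 471 CPM in WT and between 162 and 422 CPM in KO, and fibroblast markers, led by *Col3a1* and *Col1a1*, between 2306 and 7768 CPM in WT and between 2605 and 5919 CPM in KO. Adipocyte markers, led by *Fabp4* and *Plin1*, reached at most 309 CPM and erythroid markers, led by *Hbb-bs* and *Hba-a1*, at most 14.0 CPM. On average 6 of the 7 fibroblast and 4 of the 5 adipocyte markers were lower in KO, and *Adipoq* was the only one of these without overlap, at most 4.07 CPM. Of all genes tested, 11.7% were without overlap, 6.23% with KO above and 5.5% with KO below WT. In these bulk samples, fewer cells of a type and less RNA per cell cannot be told apart.

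**Figure D1:**
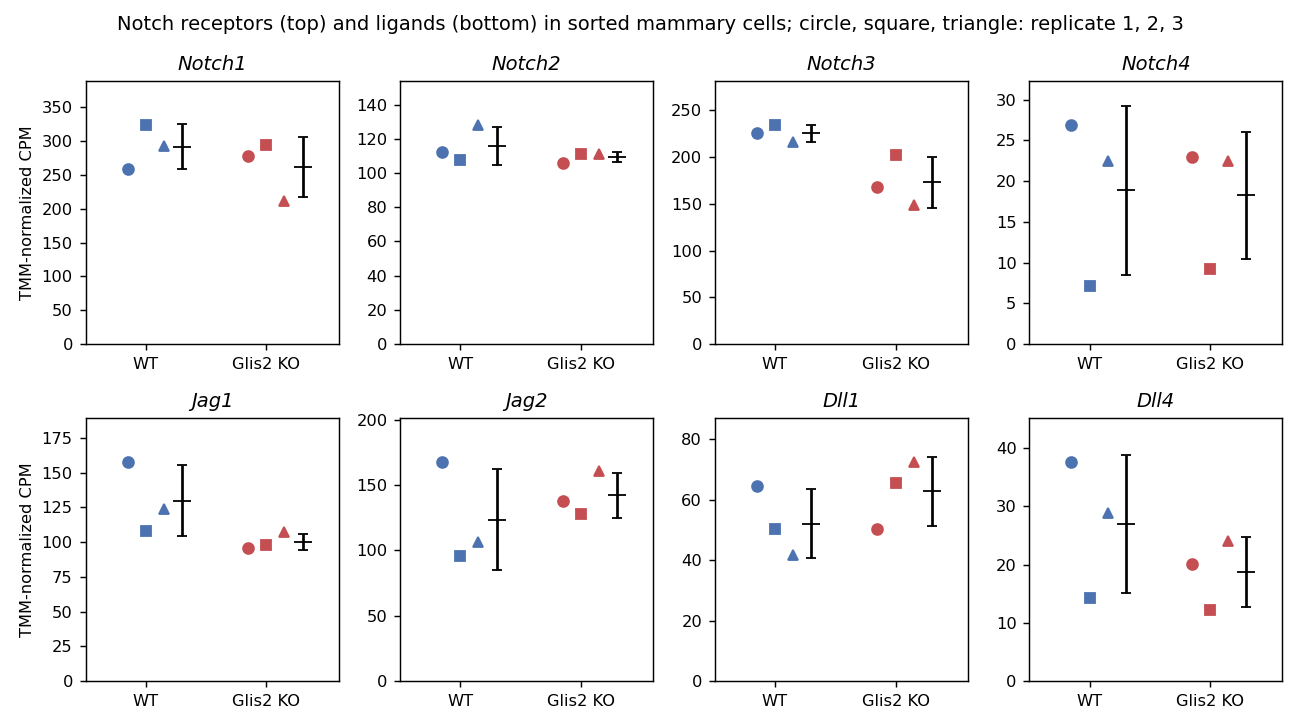
TMM-normalized CPM of each Notch receptor (top row) and ligand (bottom row) in the 3 WT (blue) and 3 Glis2 KO (red) libraries, with the mean and SD as a black bar beside each genotype and the shape of a point giving the replicate number. The KO points of *Notch3* and *Jag1* all lie below the WT points, while *Notch4* and *Dll4* are low in replicate 2 of both genotypes.

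Among the receptors, *Notch3* differed most in relation to its spread. *Notch3* (ENSMUSG00000038146, chromosome 17, 32120820 to 32166852 of GRCm38, minus strand) had 225, 234 and 216 CPM in the WT libraries and 168, 202 and 149 CPM in the Glis2 KO libraries. Each KO library was below each WT library, and WT replicate 2, which had the lowest pericyte and endothelial levels, had the most *Notch3*. All 7 pericyte markers were lower on average in KO with overlap between the genotypes, and their part in the difference was not tested. The means were 225 ± 9.22 CPM in WT and 173 ± 27.1 CPM in KO (SD, n = 3 each), and the log2 fold change was −0.38 (standard error 0.12, 95% interval −0.66 to −0.10). The unadjusted p of 0.0139 became 0.906 after Benjamini-Hochberg adjustment over all genes in edgeR. With each mouse left out in turn, the log2 fold change of *Notch3* stayed between −0.52 and −0.30 and its unadjusted p between 0.00186 and 0.0449 in edgeR. On the TPM scale it was −0.44 from log2(TPM + 1) and −0.50 from log2(TPM + 0.1), with an unadjusted p of 0.0554 and 0.0520 in limma.

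*Notch1* (ENSMUSG00000026923, chromosome 2, 26457903 to 26516663, minus strand), the receptor with the most counts, had 258, 324 and 293 CPM in WT and 278, 294 and 211 CPM in KO. The genotypes overlapped, with only KO replicate 3 below every WT library, and the log2 fold change was −0.16 (standard error 0.14, 95% interval −0.49 to 0.17). It was −0.04 without KO replicate 3 and −0.26 without KO replicate 2, and −0.25 from log2(TPM + 1) and −0.28 from log2(TPM + 0.1) in limma. *Notch2* (ENSMUSG00000027878, chromosome 3, 98013527 to 98150361, plus strand), another receptor, had 112, 107 and 128 CPM in WT and 106, 111 and 111 CPM in KO. The genotypes overlapped, and the log2 fold change was −0.08 (standard error 0.10, 95% interval −0.32 to 0.15), with −0.0041 without WT replicate 3 and −0.13 without WT replicate 2. On the TPM scale it was −0.13 from log2(TPM + 1) and −0.16 from log2(TPM + 0.1) in limma. With all mice, neither interval reached the threshold of 0.58 in either direction.

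*Notch4* (ENSMUSG00000015468, chromosome 17, 34564268 to 34588503, plus strand) was the receptor with the fewest counts. It had 26.9, 7.14 and 22.5 CPM in WT and 23.0, 9.28 and 22.5 CPM in KO, so that replicate 2 was low in both genotypes and the other 4 libraries lay close together. The log2 fold change was −0.05 (standard error 0.49, 95% interval −1.17 to 1.07), an interval wide enough to hold a change of 1 in either direction. The sign turned when WT replicate 1, WT replicate 3 or KO replicate 2 was left out, to 0.28, 0.10 and 0.26.

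Among the ligands, *Jag1* (ENSMUSG00000027276, chromosome 2, 137081456 to 137116644, minus strand), which encodes a Jagged ligand, had 158, 108 and 124 CPM in WT and 95.8, 98.1 and 107 CPM in Glis2 KO. The genotypes did not overlap, but KO replicate 3 came just under WT replicate 2, and WT replicate 1 stood apart above the rest. The means were 130 ± 25.6 CPM in WT and 100.3 ± 5.91 CPM in KO (SD, n = 3 each), and the log2 fold change was −0.37 (standard error 0.15, 95% interval −0.71 to −0.04). Its p was 0.0315 before and 0.906 after adjustment over all genes in edgeR. Without WT replicate 1 the log2 fold change was −0.23, with an unadjusted p of 0.101 in edgeR, and the p was 0.0931 without KO replicate 1 and 0.0734 without KO replicate 2. On the TPM scale, which had no TMM scaling between libraries, the difference was larger, −0.60 from log2(TPM + 1) and −0.69 from log2(TPM + 0.1) in limma. A shift of a whole library would also enter these TPM values, and its part was not tested.

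*Jag2* (ENSMUSG00000002799, chromosome 12, 112907819 to 112929776, minus strand), the other Jagged ligand, had 168, 95.9 and 107 CPM in WT and 138, 128 and 161 CPM in KO. WT replicate 1 was the highest library and the other 2 WT libraries were the lowest. The log2 fold change was 0.20 (standard error 0.21, 95% interval −0.27 to 0.67). With 1 mouse left out it ranged from 0.05 (WT replicate 2) to 0.47 (WT replicate 1, unadjusted p = 0.0105 and adjusted p = 0.770 in edgeR). On the TPM scale, again without TMM scaling, the difference turned to −0.039, from log2(TPM + 1) in limma.

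*Dll1* (ENSMUSG00000014773, chromosome 17, 15367354 to 15376872, minus strand), a Delta-like ligand, had 64.5, 50.4 and 41.6 CPM in WT and 50.3, 65.7 and 72.7 CPM in KO. KO replicates 2 and 3 were above every WT library and KO replicate 1 was level with WT replicate 2, for a log2 fold change of 0.27 (standard error 0.19, 95% interval −0.17 to 0.71). With 1 mouse left out it ranged from 0.13 (WT replicate 3) to 0.44 (WT replicate 1), and it was 0.051 from log2(TPM + 1) in limma. *Dll4* (ENSMUSG00000027314, chromosome 2, 119325784 to 119335962, plus strand), the Delta-like ligand of blood vessels, had 37.7, 14.2 and 28.8 CPM in WT and 20.1, 12.2 and 24.0 CPM in KO. Replicate 2 was again the lowest library of each genotype, and the log2 fold change was −0.52 (standard error 0.36, 95% interval −1.35 to 0.31). It ranged from −0.21 without WT replicate 1 to −0.82 without WT replicate 2, where the unadjusted p was 0.0185 in edgeR.

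**Figure D2:**
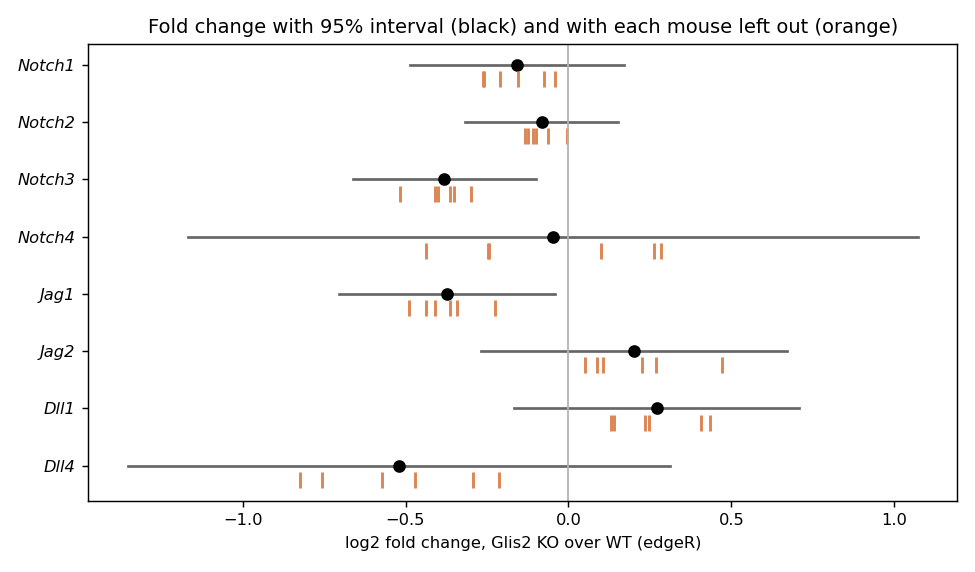
Log2 fold change of each member, Glis2 KO over WT, from edgeR (black point) with its 95% interval (line) and the values with each of the 6 mice left out in turn (orange ticks). The intervals of *Notch3* and *Jag1* end below 0 before adjustment for the number of genes, and the ticks of *Notch4* lie on both sides of 0, from −0.44 to 0.28.

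Over the 8 members, 0 were called. The log2 fold change was below 0 for 6 of them, as for 48.4% of all genes tested, and their median log2 fold change was −0.12, beside 0.01 over all genes tested. An unadjusted p under 0.05 was found for 2 of the 8, both lower in KO, where 5.32% of all genes tested had one, 2.99% higher and 2.33% lower in KO. The genotypes did not overlap for these same 2 members, *Notch3* and *Jag1*, and for 11.7% of all genes tested, 6.23% with KO above and 5.5% with KO below WT. In TPM, without TMM scaling, every KO library of both genes was also below every WT library. A two-sided exact permutation test of the CPM values gave 0.1 for *Notch3* and for *Jag1*, the smallest p that 3 mice against 3 allow, and between 0.3 and 0.9 for the other 6. The basal and immune marker sums were higher in the KO libraries, opposite in direction to both genes. Most pericyte, fibroblast and adipocyte markers were lower in KO on average, and the part of any of these cells in the difference was not tested.

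Per length, *Jag2* and *Notch1* stood highest, with median TPM over the 6 libraries of 8.33 and 8.17, followed by *Notch3* (6.33 TPM), *Dll1* (6.13 TPM), *Jag1* (5.57 TPM), *Notch2* (3.36 TPM), *Dll4* (1.41 TPM) and *Notch4* (0.941 TPM). This order over all libraries was not that of either genotype. In WT it ran *Notch1* (9.03 TPM), *Jag2* (8.12 TPM), *Jag1* (7.76 TPM), *Notch3* (6.82 TPM) and *Dll1* (6.13 TPM), and in Glis2 KO *Jag2* (8.54 TPM), *Notch1* (8.15 TPM), *Dll1* (6.14 TPM), *Notch3* (5.6 TPM) and *Jag1* (4.67 TPM), by median TPM. *Notch2*, *Dll4* and *Notch4* followed in both. Of the 7 pairs of neighbours in the order over all libraries, 3 kept the same direction in 6 of 6 libraries: *Notch1* was above *Notch3*, *Jag1* above *Notch2* and *Notch2* above *Dll4*. For each of the 3 the two-sided exact sign-flip permutation p was 0.0313, the smallest that 6 libraries allow, and 0.0729 after Benjamini-Hochberg adjustment over the 7 pairs. The order within the other 4 pairs was the same in only 3 of 6 libraries. For *Jag2* and *Notch1* and for *Dll4* and *Notch4*, libraries of both genotypes lay on either side. For *Notch3* and *Dll1* and for *Jag1* and *Dll1* the split ran by genotype, with *Dll1* the lower in each WT library and the higher in each KO library. All TPM values here are small because the gene *Gm23935*, annotated as a microRNA, took between 83.0% and 85.7% of each library's TPM. TPM divides by a transcript length that is estimated in each library, so TPM and CPM of a gene can part. The parting was measured after centring each gene and after taking out the median of each library over genes, so a library-wide shift is not in it. On the log2 scale the largest such parting in any library was 0.89 for *Notch4*, 0.39 for *Notch1* and 0.36 for *Notch3*. The median over all genes was 0.14.

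The make-up of the receptors and ligands was read from the same TPM values. Of the summed TPM of the 4 receptors, *Notch1* held between 41.0% and 47.3% over the 6 libraries. The share of *Notch3* was 35.7%, 34.6% and 34.6% in WT and 30.8%, 33.0% and 28.9% in Glis2 KO, without overlap. *Notch2* held between 13.2% and 18.7% and *Notch4* between 2.75% and 8.74%, with overlap for both. Of the summed TPM of the 4 ligands, the share of *Jag1* was 28.3%, 31.4% and 33.7% in WT and 22.8%, 24.3% and 20.5% in KO, without overlap. *Jag2* held 33.7% to 38.7% in WT and 38.6% to 42.2% in KO, and *Dll1* 22.9% to 30.0% in WT and 29.7% to 33.4% in KO, each overlapping by a small margin. *Dll4* held between 3.69% and 10.1% over all libraries.

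**Figure D3:**
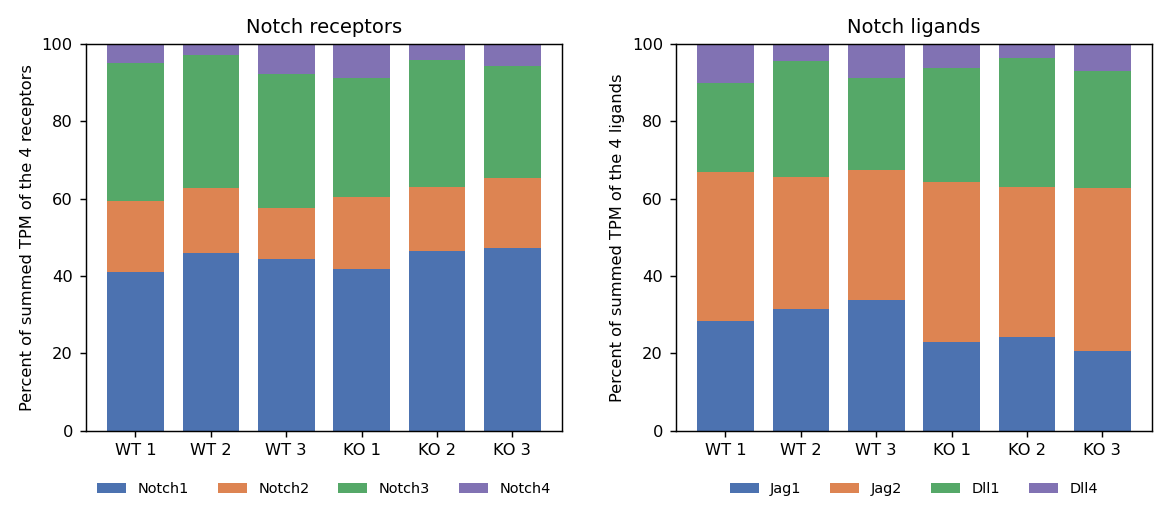
Percent of the summed TPM of the 4 Notch receptors (left) and of the 4 ligands (right) held by each gene in each library, as stacked bars that each add up to 100%. *Jag1* (blue, right) takes 28.3% to 33.7% in the WT bars and 20.5% to 24.3% in the KO bars.

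Ratios of 2 members within a library do not depend on library scaling. The ratio of *Jag1* to *Jag2* counts was 0.940, 1.13 and 1.16 in WT and 0.696, 0.767 and 0.663 in KO, a difference of −0.60 in log2. The ratio of *Jag1* to *Dll1* counts was 2.45, 2.14 and 2.98 in WT and 1.90, 1.49 and 1.47 in KO, a difference of −0.64 in log2. Among the receptors, the ratio of *Notch1* to *Notch3* counts was 1.14, 1.38 and 1.36 in WT and 1.66, 1.46 and 1.42 in KO, a difference of 0.22 in log2. In each of these 3 pairs, chosen after their values were seen, the genotypes did not overlap, and the two-sided exact permutation p was 0.1, the smallest possible. Over all 28 pairs of members the genotypes did not overlap in 5, the other 2 being *Notch2* to *Jag1* and *Notch3* to *Dll1*, and each of the 5 was also without overlap in TPM. Of all pairs of genes with a mean of at least 10 CPM, 12.3% were without overlap, and the 28 pairs share genes, so this count is a description.

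**Figure D4:**
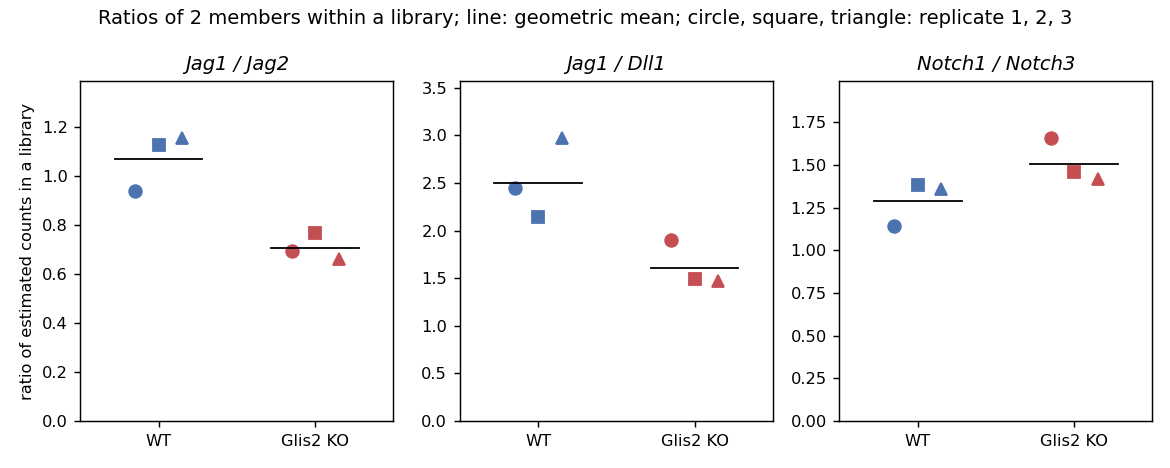
Ratio of the estimated counts of 2 members in the same library for *Jag1* to *Jag2*, *Jag1* to *Dll1* and *Notch1* to *Notch3*, by genotype, with the geometric mean as a line and the replicate number as the shape. The *Jag1* to *Jag2* ratio is at least 0.940 in the WT libraries and at most 0.767 in the KO libraries.

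*Notch4* and *Dll4* were the only members that varied more between libraries than the median gene, with an SD of log2 CPM of 0.81 and 0.61 against a median of 0.38 over all genes. Both had WT replicate 2 and Glis2 KO replicate 2 as their 2 lowest libraries, an order that 11.2% of all genes tested shared. The same order was found for 11 of 12 endothelial, 6 of 7 fibroblast, 5 of 7 pericyte, 2 of 3 erythroid, 3 of 7 immune, 2 of 5 adipocyte, 1 of 10 basal and 0 of 12 luminal markers. The low values of *Notch4* and *Dll4* thus ran with those of several cell types at once, and the part of any of them was not tested. With the endothelial level as a covariate in edgeR, chosen after the values were seen, 1945 of 21236 genes had an unadjusted p under 0.05, against 1130 without it. In that fit the log2 fold change of *Dll4* was −0.52 with an unadjusted p of 0.00476 and an adjusted p of 0.285, and that of *Notch4* was −0.01 with an adjusted p of 0.994. *Notch3* and *Jag1* were at −0.38 each, with adjusted p of 0.252 and 0.285 in edgeR.

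The genes whose pattern over the 6 libraries was most like that of *Notch4* were *Scg3*, a secretogranin, and *Fgd5*, an exchange factor of endothelial cells, with a root mean square difference of 0.11 and 0.13 in centred log2 CPM. *Fgd5* was at 81.9, 21.04 and 76.6 CPM in WT and 61.6, 31.5 and 74.7 CPM in KO. For *Dll4* they were *Mag*, a myelin glycoprotein gene, and *AC124181.1*, both at 0.08. *Mag* lay at only 1.2 to 3.66 CPM, and none of these likenesses was tested.

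**Figure D5:**
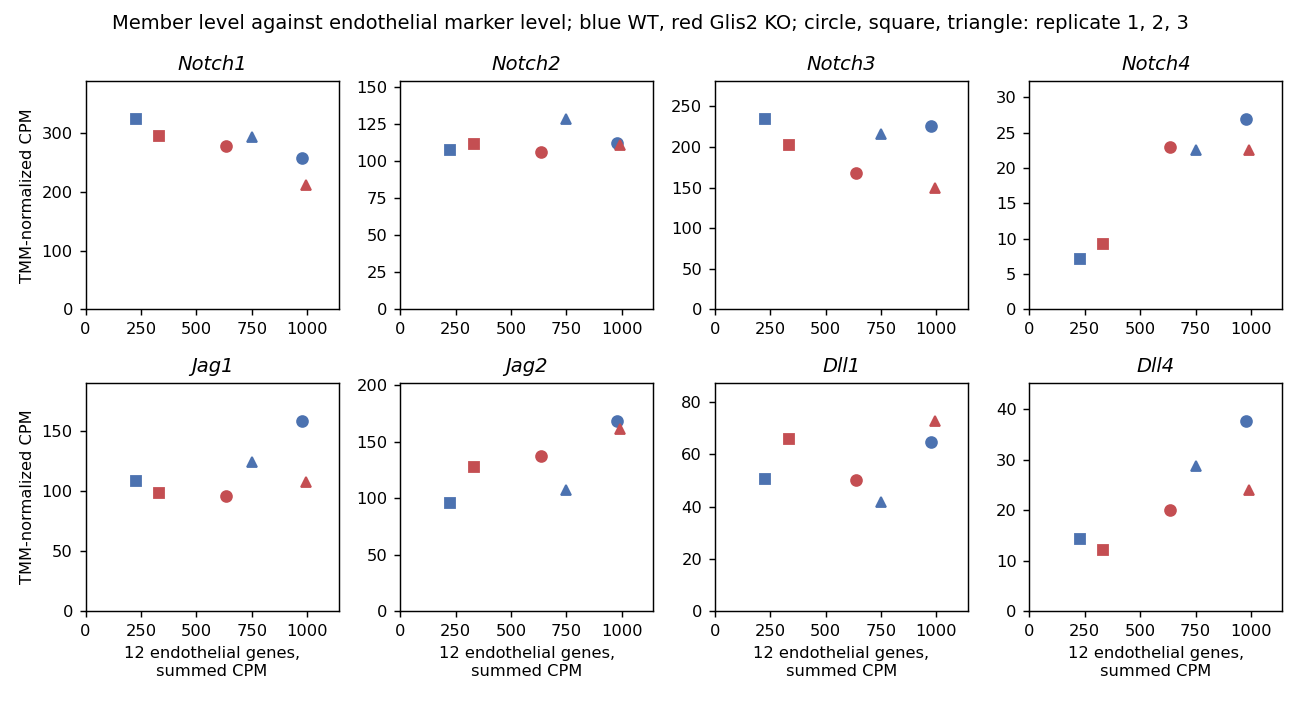
TMM-normalized CPM of each member (y axis) against the summed CPM of 12 endothelial marker genes (x axis) in the 6 libraries, with WT in blue, Glis2 KO in red and the replicate number as the shape. *Notch4* and *Dll4* are lowest in the 2 libraries at the left, with 227 and 333 CPM of endothelial genes, while *Notch1* is highest there.

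The rest of the Notch pathway was read from lists of 60 genes, 57 of which were tested and 0 called in either direction. Of these, 31 were higher and 26 lower in Glis2 KO, with a median log2 fold change of 0.02 beside 0.01 over all genes tested. An unadjusted p under 0.05 in edgeR was found for 5 of the 57 (8.77%), against 5.32% of all genes tested, and the genotypes did not overlap for 9 of them (15.8%), against 11.7%. *Dll3*, *Dner* and *Hes5* did not pass the filter on low counts.

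Ligands need ubiquitination and endocytosis in the sending cell to pull on the receptor. An unadjusted p under 0.05 in edgeR was found for 3 of the 8 genes tested for this step, against 5.32% of all genes tested. These genes did not share a direction. *Neurl1b*, a neuralized-type ubiquitin ligase, was at 16.3, 10.7 and 12.9 CPM in WT and 5.83, 5.61 and 7.25 CPM in Glis2 KO. Every KO library was well below every WT library, and its log2 fold change was −1.10 (standard error 0.24, unadjusted p = 0.00157 and adjusted p = 0.849 in edgeR). *Epn2*, an epsin of clathrin-mediated endocytosis, had 41.6, 44.0 and 43.5 CPM in WT and 55.1, 53.6 and 51.4 CPM in KO, which differed by 0.31 in log2 (standard error 0.10, adjusted p = 0.906 in edgeR), but its TPM overlapped. *Neurl3*, another neuralized-type gene, had 37, 1 and 3 counts in WT and 62, 80 and 100 counts in KO (unadjusted p = 0.0293 in edgeR). The list as a whole had 5 genes higher and 3 lower with a median log2 fold change of 0.11.

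Fringe enzymes and other glycosyltransferases tune which ligands a receptor binds, and proteases cut it. Of 14 tested, 6 were higher and 8 lower in KO with a median log2 fold change of −0.05, 0 had an unadjusted p under 0.05 in edgeR, and the genotypes overlapped for all 14. The protease *Adam17* (−0.26, standard error 0.12) and the Fringe glycosyltransferase *Lfng* (0.35, standard error 0.21) had the smallest p among them, at 0.0641 and 0.128 before adjustment in edgeR. Of 10 genes of the nuclear complex and its corepressors, 7 were higher and 3 lower with a median of 0.01. *Kat2b*, an acetyltransferase coactivator, had 37.3, 39.1 and 37.9 CPM in WT and 50.1, 48.2 and 42.5 CPM in KO, which differed by 0.30 in log2 (standard error 0.12, adjusted p = 0.906 in edgeR), with overlap in TPM. The coactivator *Maml2* was next, with a log2 fold change of 0.18 (standard error 0.10), without overlap in CPM and with overlap in TPM, whereas *Rbpj* itself, the DNA-binding partner of the receptors, differed by −0.01 (standard error 0.13).

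Of 10 genes of receptor turnover and inhibition, 7 were higher and 3 lower in KO with a median of 0.07, and the ubiquitin ligase *Nedd4* (0.15, standard error 0.08) and the degradation adaptor *Sel1l* (0.21, standard error 0.11) had the smallest p, 0.0788 and 0.0973 before adjustment in edgeR. The list of other ligands had 2 genes tested, *Dlk1* (−0.77, standard error 0.68) and *Dlk2* (0.33, standard error 0.30), which lack the domain by which the classical ligands bind receptors.

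Of 13 target genes tested, 5 were higher and 8 lower in KO with a median log2 fold change of −0.08. *Hey2*, a repressor best known in heart and vessels, was at 3.79, 4.83 and 4.30 CPM in WT and 2.04, 2.64 and 1.73 CPM in KO. The genotypes did not overlap, and the log2 fold change was −1.01 (standard error 0.33, unadjusted p = 0.0151 and adjusted p = 0.906 in edgeR). *Cdkn1a*, the p21 cell cycle inhibitor, followed with −0.35 (standard error 0.16) and an overlap between genotypes. *Hes1*, the target most widely used as a readout of the pathway, had 36.9, 35.6 and 42.8 CPM in WT and 37.2, 44.3 and 38.7 CPM in KO, a log2 fold change of 0.06 (standard error 0.13).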

How the data were processed

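RNA-seq libraries of sorted mammary cells from 3 WT and 3 Glis2 KO mice were analysed. The authors quantified the reads with Salmon 1.2.1 on an mm10 transcriptome with Ensembl annotation and summed them per gene with tximport, so the deposited estimated counts, whole numbers without normalization, depend on how reads were shared between overlapping transcripts. The authors also deposited log2(TPM + 1) values. Of 54418 identifiers, 54166 were matched to GENCODE vM21 (GRCm38). No library was a copy of another (chi-square per degree of freedom of at least 18.8).

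The counts were tested with edgeR 4.0.16 in R 4.3.3 (filterByExpr, TMM, quasi-likelihood, no replicate block, Benjamini-Hochberg adjustment over all genes). A call needed an adjusted p up to 0.05 together with a log2 fold change of 0.58 or more in size. The members and lists were chosen with earlier results of these data known. The genes named are the members, *Glis2*, the 2 genes of each pathway list with the smallest p, the 2 highest markers of each cell type, and the 2 genes most like each member of above-median spread. *Neurl3*, *Rbpj*, *Hes1*, *Oxtr*, *Cnn1*, *Cd79a*, *Adipoq* and *Gm23935* were named after their values were seen. Alternatives were DESeq2 1.42.0 with apeglm 1.24.0 and without shrinkage, DESeq2 size factors, a minimum of 10 counts per library, no low-count filter, limma 3.58.1 on log2(TPM + 1) and log2(TPM + 0.1), a replicate block, each mouse left out and an endothelial covariate. P-values for genotype set the difference against the spread between mice of a genotype, which edgeR and the other models moderate over genes. Sign-flip p-values are for the difference between 2 genes within a library, over the 6 libraries of both genotypes.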

Additional observations from a re-analysis of the deposited data

How the results depend on the processing

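The count of 0 genes called in edgeR (1130 at an unadjusted p under 0.05) became 45 with DESeq2 and apeglm, 48 with DESeq2 without shrinkage, 40 without a filter on low counts, 1 with log2(TPM + 0.1) in limma and 20 with the endothelial covariate. It was 0 with each mouse left out and with the other alternatives, and no member was called in any. *Notch1*, *Notch3*, *Jag1*, *Dll1* and *Dll4* kept their sign in every alternative. *Notch4* turned to 0.043 with a replicate block, and with 1 mouse left out its log2 fold change ranged from −0.44 to 0.28. *Jag2* turned to −0.039 with log2(TPM + 1) in limma and −0.042 with log2(TPM + 0.1). Shrinkage by apeglm left each of the 8 members near 0, with *Notch3* the largest in size at −1.74e-05 and *Notch2* turned to 7.49e-06. Deviations of same-numbered mice correlated at −0.02, 0.17 and 0.02 across genes, and those of differently numbered mice at −0.19 to 0.19. With so few mice per genotype, these values cannot decide whether replicate numbers were a pairing. The replicate block changed no call and no other direction. It lowered the standard error of *Notch4* from 0.49 to 0.19 and of *Dll4* from 0.36 to 0.19, but raised those of *Notch2* and *Dll1* slightly. The unadjusted p of *Dll4* went from 0.188 to 0.0452 in edgeR (adjusted p = 0.812 with the block). In the order of levels, 2 to 4 neighbouring pairs kept 1 direction in all libraries with 1 mouse left out, and 2 after leaving out *Gm23935*. Causes were not tested.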
